A study of Mus musculus with 6 samples.

Results

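The genes described here are 9 leukocyte integrins and adhesion molecules, measured in the RNA of mouse peritoneal exudate macrophages (PEMs) with and without Tim-4. They are the immunoglobulin family ligands *Icam1* and *Vcam1*, the integrin β chains *Itgb2* and *Itgb1*, the α chains *Itgam*, *Itgal*, *Itgax* and *Itga4*, and the selectin ligand *Selplg*. They were taken by name, not by their values. All 9 were found among the 15415 genes of the table, and all 9 were among the 9030 genes tested, those with a mean of at least 1 FPKM (fragments counted on a gene, scaled by gene length and library depth) in 1 of the groups.

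The study asks what Tim-4, a phosphatidylserine receptor of macrophages encoded by *Timd4*, does in thrombosis, and these libraries compare PEMs that lack it with PEMs that carry it. The knockout group was 3 RNA-seq libraries from mice of the genotype LysM-Cre; Tim-4 fl/fl, and the control group was 3 libraries from Tim-4 fl/fl littermates that carry no Cre. Both groups thus carry the loxP-flanked *Timd4* allele and differ by the Cre. Libraries were assigned by title, because in the labels the genotype entries of the knockout and the control are swapped. The study's methods give male C57BL/6J mice of 6 to 8 weeks, with PEMs collected 3 days after 6% starch was injected into the peritoneum. The labels list LPS as the treatment of all 6 libraries. The methods describe PEMs activated with 1 μg/ml LPS for 3.5 h but do not tie that step to the sequenced cells. Cre is expressed from the *Lyz2* locus, which is active in myeloid cells in general, neutrophils included, and not in macrophages alone. The study describes its replicates in general as biological, but no source used here says whether the 3 libraries of a group came from separate animals, so p-values measure the spread between these libraries, which may be technical in part.

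Leukocytes bind each other, the vessel wall and the matrix in steps. PSGL-1, the product of *Selplg*, binds selectins and slows cells in flow. Integrins, dimers of an α and a β chain, then change shape after activation and hold the cell on ligands. The β2 chain (CD18) pairs with αM (CD11b, Mac-1), αL (CD11a, LFA-1) and αX (CD11c), whose ligands include ICAM-1, fibrinogen and complement fragments. The β1 chain pairs with many α chains, and with α4 it forms VLA-4, the receptor of VCAM-1 and fibronectin. Macrophages carry Mac-1 in large amounts, and ICAM-1 and VCAM-1 are known as inducible in inflamed cells.

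The bases just before 3 of the start sites are shown because *Icam1* had the lowest p of the 9 genes, and because *Itgam* and *Itgax* are neighbouring protein-coding genes on chromosome 7, with 0 others between them, whose means differed between the groups in opposite directions. RefSeq (GRCm38.p6) gave an entry for 5 of the 9 genes. Each window holds the 250 bases before the start site, 5′ to 3′ on the + strand, which is the coding strand of each gene. The windows are chr9:21015690-21015939 for *Icam1*, chr7:128062390-128062639 for *Itgam* and chr7:128129300-128129549 for *Itgax*. Capitals mark matches to the letters searched on both strands.
Icam1: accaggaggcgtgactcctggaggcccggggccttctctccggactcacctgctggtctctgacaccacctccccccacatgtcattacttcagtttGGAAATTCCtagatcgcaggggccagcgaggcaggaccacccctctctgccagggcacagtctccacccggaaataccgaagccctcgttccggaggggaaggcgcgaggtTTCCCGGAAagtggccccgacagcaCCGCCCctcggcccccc
Itgam: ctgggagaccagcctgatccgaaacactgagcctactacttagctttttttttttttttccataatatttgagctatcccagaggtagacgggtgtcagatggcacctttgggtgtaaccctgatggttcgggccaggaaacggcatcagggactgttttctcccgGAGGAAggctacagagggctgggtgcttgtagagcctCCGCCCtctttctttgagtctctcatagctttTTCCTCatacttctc
Itgax: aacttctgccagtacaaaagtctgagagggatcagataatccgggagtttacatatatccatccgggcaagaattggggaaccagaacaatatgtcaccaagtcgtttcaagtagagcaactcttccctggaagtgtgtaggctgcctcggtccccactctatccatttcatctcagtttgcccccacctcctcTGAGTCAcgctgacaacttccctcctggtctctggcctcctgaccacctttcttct

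The *Icam1* window held the letters GGAANTTCC, an NF-κB-like motif, once at position -153 from the start site, and they occurred in 0.813% of 32851 windows of the same length. It also held TTCNNNGAA, a STAT-like motif found in 7.02% of windows, at -42, and GGGCGG, a core of Sp1 sites found in 32.7%, at -17 on the other strand. The *Itgam* window held GAGGAA, a core of PU.1 sites, at -84 and, on the other strand, at -15, and 23.3% of windows held it. GGGCGG lay at -47 on the other strand. The *Itgax* window held TGANTCA, the AP-1 motif, at -56, and 6.75% of windows held it. No matches overlapped. A match describes the letters only.

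The libraries held 36170767 to 42217558 counted reads. *Timd4* read 0.333, 0.394 and 0.246 FPKM in the knockout and 19.5, 12.0 and 1.19 FPKM in the control (libraries 1 to 3 of each, as in every list of values here). No values overlapped, but control library 3 lay close to the knockout (log2 fold change -2.66, limma adjusted p = 0.0715). That library also stood apart from the other controls over all genes: across genes its correlation with control library 1 was 0.9479 and with control library 2 0.9675, against 0.9666 with knockout library 3, while control libraries 1 and 2 correlated at 0.9834. *Lyz2*, the locus of the Cre, read 41.4, 4656 and 106 FPKM in the knockout and 7090, 7171 and 8482 FPKM in the control, so knockout library 2 kept far more of it than the other two. The 6 macrophage markers summed to 2335 to 2526 FPKM in the knockout and 1857 to 2354 in the control, with *Cd68* the highest. *Fcgr1* was the 1 of the 6 past the threshold, higher in the knockout. *Cd68* was also higher in every knockout library than in any control (log2 fold change 0.62, limma adjusted p = 0.0989). *Csf1r* and *Cd14* were lower in every knockout library than in any control, with log2 fold changes of -0.71 and -0.73 that did not pass. *Mertk* (1.07) and *Adgre1* (-0.24) overlapped between the groups and did not pass. Of the 6 markers 2 thus lay apart as higher and 2 as lower, beside 11.1% and 23% of all tested genes. Apart from *Cd68*, these markers were named after their values were seen. Markers of several other cell types were present, and several of B cells, mast cells and neutrophils were lower in the knockout. The B cell markers summed to 2.78 to 5.52 against 27.5 to 115 FPKM (5 of 5 tested lower, led by *Cd79a*), the mast cell markers to 1.89 to 2.27 against 38.2 to 49.3 (5 of 5, led by *Tpsb2*) and the neutrophil markers to 42.0 to 73.8 against 161 to 175 (2 of 4, *S100a8* and *Camp*). Nearly all of the neutrophil sum was *S100a8*, and *S100a9* overlapped between the groups, at 0.949 to 1.21 against 0 to 5.12 FPKM. Without the filter on low values 2 of 5 B cell, 4 of 7 mast cell and 1 of 6 neutrophil markers passed, and each of the 5 B cell markers lost its call in at least 1 of the fits that left out a library (highest adjusted p 0.0878 to 0.170). The large peritoneal macrophage markers summed to 3.31 to 6.68 against 15.8 to 54.8 FPKM. That list was led by *Timd4*, the deleted gene itself, and 3 of its 6 tested genes were lower, *Vsig4*, *Alox15* and *Icam2*, the first 2 named after their values were seen. Monocyte or small peritoneal macrophage markers, led by *Ly6c2*, summed to 7.73 to 53.1 against 19.9 to 36.5 FPKM (1 of 3 lower), and eosinophil markers, led by *Ccr3*, to 1.07 or less in every library. No marker was at 0 in every library. In such bulk RNA, fewer cells of a type and less RNA per cell cannot be told apart.

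The ligands *Icam1* and *Vcam1* and the α chains *Itgal* and *Itgax* had higher means in the knockout, by ratios of 1.60 to 1.73. *Itgb1* and *Itgam* had lower means, at ratios of 0.798 and 0.841, and the rest had ratios of 0.993 to 1.19. But none of the 9 genes passed an adjusted p of 0.05 (limma on log2(FPKM + 1), Benjamini-Hochberg over the 9030 genes). Among all tested genes 7.31% passed, 2.57% higher and 4.74% lower in the knockout, which is 232 and 428 genes. When the libraries were rescaled by their median of ratios the split was 327 higher (3.62%) and 346 lower (3.83%). At an unadjusted p under 0.05 there were 2 of the 9, *Icam1* and *Itgal*, beside 27.6% of all tested genes. limma voom on reads recovered from the FPKM values called 0 of the 9 and 6.47% of all genes. The median log2 fold change was 0.25 over the 9 genes, the value of *Selplg*, and -0.11 over all tested genes. After rescaling these medians moved to 0.37, again the value of *Selplg*, and -0.0045. The 3 knockout values lay above all control values for 1 of the 9 genes, *Icam1*, and below them for 1, *Itgb1*, beside 11.1% and 23% of all tested genes.

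**Figure D1:**
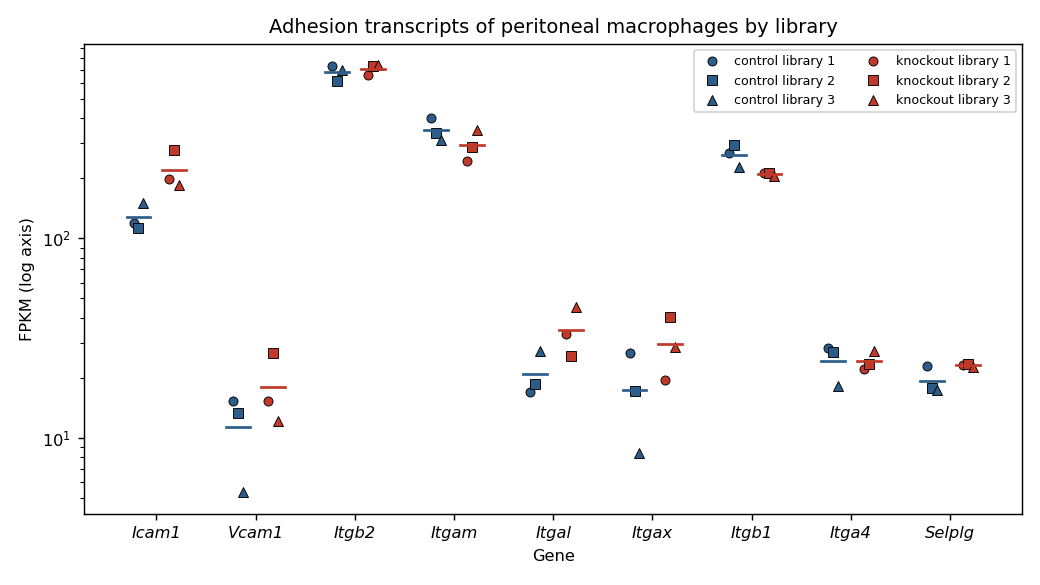
FPKM on a log axis of the 9 adhesion genes in each library, control in blue and knockout in red, with a symbol per replicate number and a bar at the group mean (n = 3). The groups are apart for *Icam1*, with the knockout at 186.0 to 277.5 and the control at 112.3 to 150.1, and for *Itgb1*, with the knockout below.

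*Icam1*, the ligand of LFA-1 and Mac-1 (Entrez 15894), measured 198.5, 277.5 and 186.0 FPKM in the knockout and 120.2, 112.3 and 150.1 FPKM in the control. Every knockout library lay above every control library. The means were 220.7 ± 49.6 and 127.5 ± 19.95 FPKM (SD, n = 3), a ratio of 1.73, and the log2 fold change was 0.78 (SE 0.19, 95% interval 0.32 to 1.23), with limma's adjusted p = 0.0564. Its log2 fold change lay above that of 95.6% of all tested genes when ranked with sign, so that every gene lower in the knockout counts as below it. The call turned on the scaling and on single libraries: the adjusted p was 0.0469 after rescaling, where 3.62% of all genes were called higher, and 0.0263 without control library 3 (5.87%), the library with the highest *Icam1* of the controls, and it lay between 0.0263 and 0.200 over the 6 fits that each left out 1 library.

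*Vcam1*, the ligand of VLA-4 (Entrez 22329), had the lowest mean of the 9 genes in both groups, at 15.3, 26.7 and 12.2 FPKM in the knockout and 15.2, 13.4 and 5.33 FPKM in the control. Knockout library 2 was high and control library 3 low, and the other 4 libraries overlapped. The means were 18.1 ± 7.64 and 11.3 ± 5.26 FPKM (SD, n = 3), and the log2 fold change was 0.67 (SE 0.41, 95% interval -0.29 to 1.63) with an adjusted p of 0.324. Without control library 3 the log2 fold change was 0.25, and without knockout library 2 it was 0.36. *Vcam1* is also a gene of mesothelial and stromal cells, and the 10 mesothelial or fibroblast markers, led by *Dcn* (0 of 5 tested called, but *Col1a1*, *Col1a2* and *Pdgfra* higher with the replicate block), summed to 12.9, 36.6 and 16.1 FPKM in the knockout and 2.16, 6.36 and 13.3 FPKM in the control. Their sum was highest in knockout library 2, as was *Vcam1*, but it was also highest among the controls in library 3, where *Vcam1* was lowest. The 4 endothelial markers measured summed to 2.44 to 3.67 and 2.39 to 3.92 FPKM, and these sums hid opposite differences that did not pass, with *Kdr* at 1.25 to 2.47 against 0.0485 to 1.11 FPKM and *Pecam1* at 0.114 to 0.250 against 0.572 to 3.08 FPKM. The part of these cells in the *Vcam1* values was not tested.

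*Itgb2*, the shared β chain of the leukocyte integrins (Entrez 16414), was the most abundant of the 9 genes, above 99.1% of all tested genes in mean FPKM. It measured 657.7, 727.6 and 737.2 FPKM in the knockout and 735.4, 617.3 and 698.6 FPKM in the control. The groups overlapped across nearly their whole range, and the log2 fold change was 0.05 (SE 0.13, 95% interval -0.25 to 0.35, adjusted p = 0.824). The interval thus leaves room for a fall of up to 0.25 or a rise of up to 0.35 on the log2 scale. After rescaling the log2 fold change was 0.18 (adjusted p = 0.464).

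*Itgam*, the α chain of Mac-1 (Entrez 16409), measured 244.7, 285.9 and 350.2 FPKM in the knockout and 400.0, 336.9 and 311.2 FPKM in the control. Knockout library 3 lay within the control range, and the other 2 knockout libraries lay below it. The means were 293.6 ± 53.2 and 349.3 ± 45.7 FPKM (SD, n = 3), a log2 fold change of -0.26 (SE 0.17, 95% interval -0.67 to 0.15, adjusted p = 0.369). After rescaling the log2 fold change was -0.13. It was also -0.13 without knockout library 1, -0.16 without control library 1 and -0.39 without knockout library 3. Neutrophils also carry Mac-1, and of their markers *S100a8* and *Camp* were lower in the knockout while *S100a9* overlapped. The *Camp* call rested on 9 to 37 reads and was lost after rescaling (adjusted p = 0.0554) and with voom (0.108). The part of neutrophils in the *Itgam* values was not tested.

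*Itgal*, the α chain of LFA-1, which lymphocytes carry as well as myeloid cells (Entrez 16408), measured 33.2, 25.7 and 45.1 FPKM in the knockout and 17.0, 18.7 and 27.3 FPKM in the control. The groups overlapped only in knockout library 2 and control library 3. The means were 34.7 ± 9.78 and 21.0 ± 5.50 FPKM (SD, n = 3), a ratio of 1.65 and a log2 fold change of 0.69 (SE 0.25, 95% interval 0.10 to 1.27, adjusted p = 0.131). *Itgal* passed the threshold with the replicate block, a term for the number that libraries of the 2 groups share (adjusted p = 0.0451, where 3.9% of all genes were called higher) and without control library 3 (0.0461). Its values were higher in the group where the B cell sum was lower, and of the T cell markers, which summed to 1.07 to 1.72 against 2.68 to 10.7 FPKM, *Cd2* was lower there and *Lck*, the other one tested, differed by -0.08 on the log2 scale (adjusted p = 0.825). The NK cell marker measured, *Klrb1c*, was at or below 0.0385 FPKM in every library. The part of lymphocytes in the *Itgal* values was not tested.

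*Itgax*, the gene of CD11c (Entrez 16411), measured 19.4, 40.4 and 28.4 FPKM in the knockout and 26.6, 17.3 and 8.45 FPKM in the control. It had a wide spread in both groups, and its SD on the log2 scale in the control exceeded that of 96.0% of all tested genes. The log2 fold change of 0.79 was the largest of the 9 and had an interval of -0.18 to 1.77 (SE 0.41, adjusted p = 0.257). It was 0.38 without control library 3 and 1.15 without control library 1. CD11c is also a marker of dendritic cells, whose 4 markers, led by *Ccr7*, summed to 2.59 to 6.35 FPKM in the knockout and 7.65 to 11.2 in the control. Nearly all of that sum was *Ccr7*, the 1 marker tested (adjusted p = 0.0553), and the other 3 were below 1 FPKM in every library. The part of dendritic cells in the *Itgax* values was not tested.

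**Figure D2:**
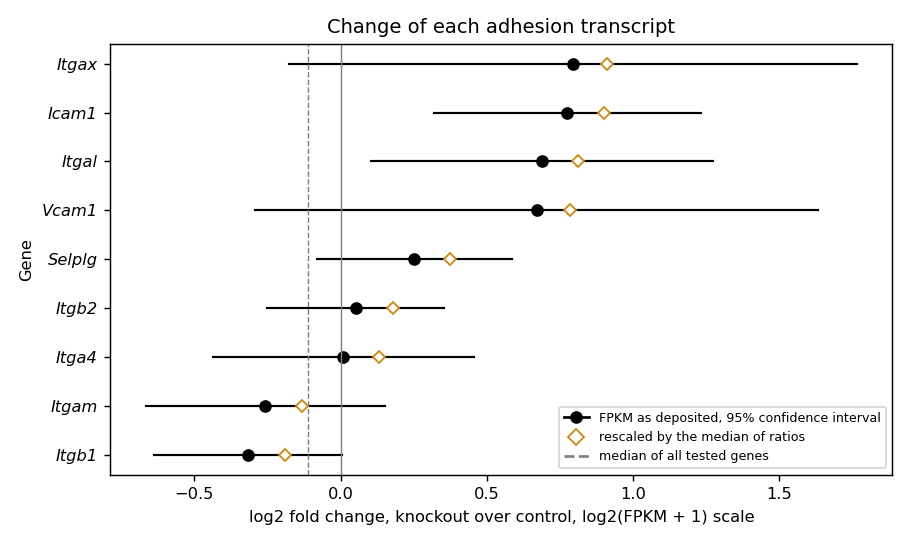
log2 fold change of each adhesion gene, knockout over control, on the log2(FPKM + 1) scale, with black points and 95% confidence intervals for the deposited FPKM and open diamonds for values rescaled by their median of ratios. The intervals of *Icam1* (0.32 to 1.23) and *Itgal* (0.10 to 1.27) lie above 0, the other 7 include 0, and the dashed line marks the median of all tested genes at -0.11.

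The makeup of the β2 family's α chains separated the groups. *Itgam* made up 82.3%, 81.2% and 82.7% of the summed FPKM of *Itgam*, *Itgal* and *Itgax* in knockout libraries 1 to 3 and 90.2%, 90.3% and 89.7% in control libraries 1 to 3. The 2 groups were well apart, at 82.1 ± 0.745% and 90.1 ± 0.333% (SD, n = 3). The difference was -8.01 percentage points, and it stayed between -8.31 and -7.60 with any 1 library left out. The exact permutation test gave a two-sided p = 0.1, the smallest that 3 against 3 libraries allow. This share was computed after the values of its 3 genes had been seen, so its test is a description.

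The rest of the sum was split differently from library to library. *Itgal* held 11.2%, 7.29% and 10.6% of the sum in the knockout and 3.84%, 5.02% and 7.86% in the control. *Itgax* held 6.53%, 11.5% and 6.71% in the knockout and 5.998%, 4.63% and 2.43% in the control. In knockout library 2 *Itgax* had the larger part, and in knockout libraries 1 and 3 *Itgal* had it. In control library 3 a higher *Itgal* share stood beside a lower *Itgax* share, so that the *Itgam* share matched the other controls.

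**Figure D3:**
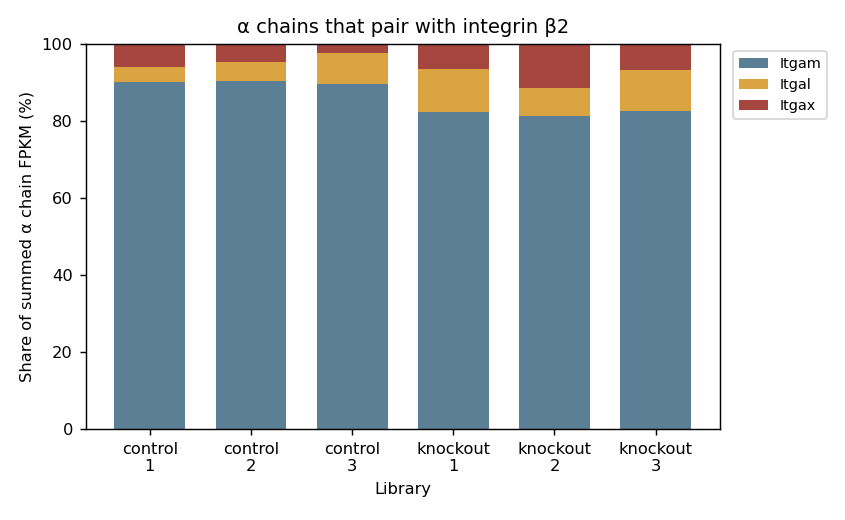
Share of *Itgam*, *Itgal* and *Itgax* in their summed FPKM, in percent, 1 stacked bar per library from 0 to 100%. The *Itgam* part is 89.7 to 90.3% in the 3 control libraries and 81.2 to 82.7% in the 3 knockout libraries.

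*Itgb1*, the β chain of the matrix and VCAM-1 receptors (Entrez 16412), measured 212.1, 212.9 and 204.6 FPKM in the knockout and 267.8, 294.8 and 226.8 FPKM in the control. All 3 knockout libraries lay below all 3 controls, and they were close to each other, with an SD on the log2 scale below that of most genes (percentile 4.6). The means were 209.9 ± 4.58 and 263.2 ± 34.3 FPKM (SD, n = 3), a ratio of 0.798. The log2 fold change was -0.32 (SE 0.14, 95% interval -0.64 to 0.0037, adjusted p = 0.185), and -0.19 after rescaling (adjusted p = 0.501).

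*Itga4*, the α chain of VLA-4 (Entrez 16401), measured 22.0, 23.5 and 27.1 FPKM in the knockout and 28.1, 27.0 and 18.1 FPKM in the control. The knockout values lay within the control range. The log2 fold change was 0.01 (SE 0.19, 95% interval -0.44 to 0.46, adjusted p = 0.979), and its sign turned when control library 3 was left out, at -0.18.

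*Selplg*, the gene of PSGL-1 (Entrez 20345), measured 23.2, 23.6 and 22.6 FPKM in the knockout and 23.0, 17.8 and 17.4 FPKM in the control. Control library 1 lay within the knockout values and the other 2 controls lay below them. The means were 23.1 ± 0.473 and 19.4 ± 3.13 FPKM (SD, n = 3), a log2 fold change of 0.25 (SE 0.14, 95% interval -0.08 to 0.59, adjusted p = 0.289).

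Counting error was small beside the spread within groups for most of these genes, but not for *Selplg*, whose counting error of up to 2.43% was about as large as the spread of its knockout values. The smallest count of any of the 9 genes was 655 reads, for *Vcam1* in control library 3, a counting error of 3.91%, and the next smallest minimum was 1323 reads, for *Itgax*. These figures cover counting error only.

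In both groups the 9 genes fell into an abundant and a less abundant set on the FPKM scale, which is per length and allows levels to be compared between genes. *Itgb2*, *Itgam*, *Itgb1* and *Icam1* exceeded 95.6% or more of tested genes in mean FPKM, and the other 5 exceeded 66.1% to 78.6%. In the control the order was *Itgb2*, *Itgam*, *Itgb1*, *Icam1*, *Itga4*, *Itgal*, *Selplg*, *Itgax*, *Vcam1*. There the first 4 were each above the next in all values, and the last 5 overlapped with their neighbours. In the knockout the order was *Itgb2*, *Itgam*, *Icam1*, *Itgb1*, *Itgal*, *Itgax*, *Itga4*, *Selplg*, *Vcam1*. *Icam1* and *Itgb1* changed places between the 2 orders, but in the knockout *Icam1* exceeded *Itgb1* in 1 of 3 libraries only, and its range also overlapped that of *Itgam*. The last 5 overlapped there too.

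Ratios of chains within a library do not move with library scaling. *Itgam* over *Itgb2* was 0.372, 0.393 and 0.475 in the knockout and 0.544, 0.546 and 0.445 in the control, a log2 difference of -0.31. *Itgal* over *Itgb2* differed by 0.66, *Itgax* over *Itgb2* by 0.79 and *Itga4* over *Itgb1* by 0.33 on the log2 scale. Without control library 3 the difference of *Itgax* over *Itgb2* was 0.32. *Vcam1* over *Icam1* differed by -0.05. The groups overlapped in all 5 ratios, and the exact permutation test gave a two-sided p = 0.2 for each of the first 4 (adjusted over the 5, 0.25) and 1 for *Vcam1* over *Icam1*. With 3 libraries a group no p below 0.1 was possible.

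Beside these genes, 7 lists of adhesion genes were counted with the same fit. Of the other integrin chains 17 of 20 were in the table and 8 were tested. One rose and 1 fell, and the median log2 fold change was -0.11, the value over all tested genes. *Itgb5*, which pairs with αv and binds vitronectin, rose from 3.63, 3.71 and 4.40 FPKM in the control to 10.3, 12.1 and 10.2 FPKM in the knockout (log2 fold change 1.28, SE 0.13, adjusted p = 0.00651). *Itgb8*, an αv partner known for activating latent TGF-β, fell from 7.50, 10.9 and 5.43 FPKM to 1.44, 0.819 and 1.95 FPKM (log2 fold change -1.88, SE 0.27, adjusted p = 0.0132). *Itgb7*, the other β partner of α4, named after its values were seen, measured 37.8, 40.4 and 29.1 FPKM in the knockout and 12.2, 15.4 and 25.4 FPKM in the control. Its log2 fold change of 1.03 had an adjusted p of 0.0606, and of 0.0432 after rescaling.

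The next list holds genes of proteins that activate integrins or link them to actin. Of its 25 genes 20 were tested, 1 rose and 2 fell, and the median log2 fold change was -0.0027. *Fermt3*, the gene of kindlin-3, which β2 integrins need for activation, fell from 83.3, 71.6 and 73.3 FPKM to 30.2, 25.4 and 43.2 FPKM (log2 fold change -1.21, SE 0.20, adjusted p = 0.0196). *Actn1*, an α-actinin that crosslinks actin at adhesions, rose from 30.1, 30.6 and 42.5 FPKM to 57.7, 76.4 and 67.2 FPKM (0.95, SE 0.18, adjusted p = 0.0283). *Vcl*, the gene of vinculin, fell from 42.0, 39.2 and 40.9 FPKM to 27.2, 25.7 and 29.5 FPKM (-0.55, SE 0.12, adjusted p = 0.0374), a call that was lost after rescaling (adjusted p = 0.0750) and with the replicate block (0.0530).

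The secreted ligands of integrins held the largest and the next largest change among the called list genes. Of 11 genes 6 were tested, 2 rose and 1 fell, with a median of -0.61. *Spp1*, the gene of osteopontin, which binds αv and α4 integrins, rose from 132, 180 and 312 FPKM in control libraries 1 to 3 to 1476, 2310 and 1527 FPKM in the knockout (log2 fold change 3.14, SE 0.33, adjusted p = 0.00651). *Mfge8*, whose product bridges phosphatidylserine on dying cells to αv integrins, rose from 15.5, 11.3 and 11.5 FPKM to 55.2, 63.7 and 85.2 FPKM (2.32, SE 0.20, adjusted p = 0.00494). *Thbs1*, the gene of thrombospondin-1, a matrix protein and platelet product, fell from 257, 273 and 277 FPKM to 101, 103 and 189 FPKM (-1.10, SE 0.25, adjusted p = 0.0426). The 4 platelet markers measured, led by *Pf4*, which macrophages also transcribe, summed to 187 to 557 FPKM in the knockout and 302 to 935 FPKM in the control, and 0 of 2 tested passed.

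**Figure D4:**
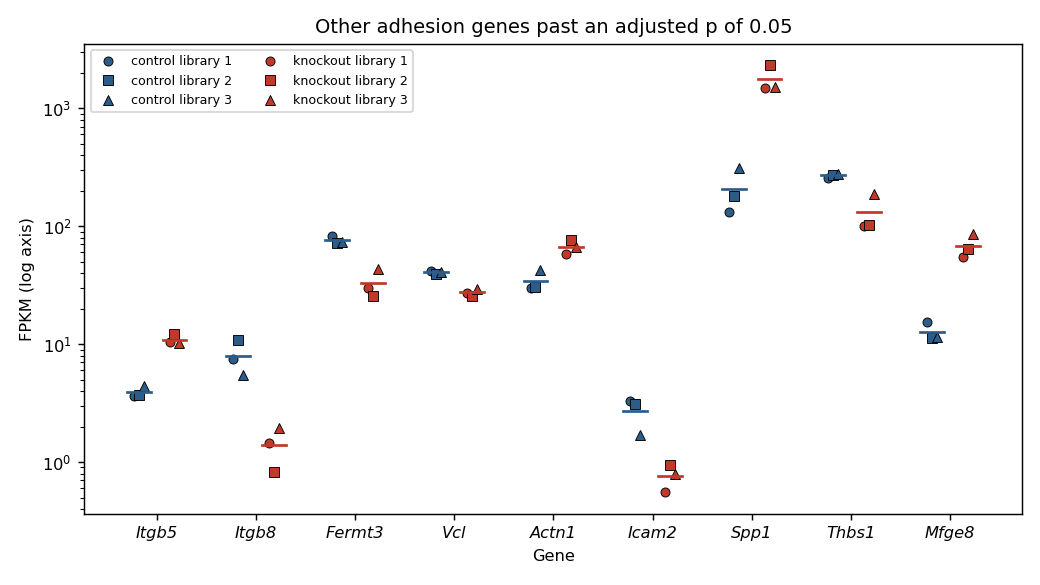
FPKM on a log axis of the 9 genes of the adhesion lists with an adjusted p under 0.05, per library, control in blue and knockout in red, with a bar at the group mean (n = 3). No gene's groups overlap, and *Spp1* shows the widest gap, from 132 to 312 FPKM in the control to 1476 to 2310 FPKM in the knockout.

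The other lists held 1 call. Of the other receptors of the immunoglobulin family and junctions 8 of 15 were tested and 1 fell, *Icam2*, an LFA-1 ligand that resident peritoneal macrophages carry. It went from 3.31, 3.13 and 1.70 FPKM to 0.553, 0.937 and 0.798 FPKM (log2 fold change -1.05, SE 0.20, adjusted p = 0.0297), with as few as 37 reads in a library. *Icam2* and *Icam1*, both ligands of LFA-1, thus had means that differed in opposite directions. None passed among 17 tested integrin signalling genes (median 0.15, 2 at an unadjusted p under 0.05), 9 genes of selectins and selectin ligand synthesis (median -0.15, 1) and 9 membrane partners of integrins (median -0.07, 3). voom, after the same filter, gave adjusted p-values of 0.0654 for *Icam2*, 0.0835 for *Vcl* and 0.0506 for *Thbs1* and kept the other 6 calls. Without control library 2 none of the 9 list calls passed, with adjusted p-values of 0.0549 to 0.155, and without knockout library 1, knockout library 2, knockout library 3 and control library 1 there were 2, 3, 6 and 7. All 9 passed without control library 3.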

How the data were processed

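RNA of PEMs was sequenced in 6 libraries. The authors deposited 1 table with FPKM per gene and library, made by the authors from counted reads, and mean read counts per group. The authors deposited these 2 signal columns as base means, beside an overall base mean whose column name gives DESeq2. The scaling is not described further, and these columns were used here only to recover reads. The genome build per the labels was mm9; the aligner and the counter are not given in the sources used here. The deposited fold change, p-value, q-value and regulation columns hold the authors' own comparison and were not used.

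All values were whole reads within 0.02 of a read once the library factors were found, and the libraries held 36170767 to 42217558 reads. Genes with a mean of at least 1 FPKM in 1 group (9030 of 15415) were tested with limma 3.58.1 in R 4.3.3 (lmFit, eBayes with trend) on log2(FPKM + 1), knockout against control, with no covariate, Benjamini-Hochberg adjustment and a threshold of 0.05. Fold changes on this scale understate those of low genes. voom, from the same package, was fitted to the recovered reads. Ratios and shares were compared with exact two-sided permutation tests in scipy 1.17.1. The steps were tested on simulated data. Deviations of same-numbered libraries from their group means correlated across genes at 0.109, 0.1095 and 0.3038, and those of the other pairs at -0.332 to 0.291. Knockout library 2 with control library 1, at 0.291, exceeded the same-numbered 0.109 and 0.1095. The check thus does not set the same-numbered pairs apart from the others. The labels give no reason for a pairing either, so the replicate block is an alternative only.

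Named were the 9 genes, *Timd4* and *Lyz2*, the called genes of each list (at most the 3 largest changes a direction), the leading marker of each cell type and the 3 nearest profiles to *Icam1* and *Itgam*. The genes and lists were chosen with earlier results of these data known. Promoter letters are from RefSeq (GRCm38.p6), matched by symbol and Entrez number, and no other coordinates were used. Alternatives were another filter, pseudocount, scaling, block or tool, and each library left out.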

Additional observations from a re-analysis of the deposited data

How the results depend on the processing

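Of 108 log2 fold changes (9 genes under 12 alternatives), 101 kept their direction and their side of the threshold, 4 newly passed it and 3 changed sign. The number of the 9 genes that were higher past the threshold was 0 in the reported fit, 1 with the replicate block, 1 after rescaling by the median of ratios and 0 to 2 with a library left out. Leaving out a library gave -0.18 to 0.12 for *Itga4*, -0.021 to 0.11 for *Itgb2* and -0.64 to 0.27 for the *Vcam1* to *Icam1* ratio, and 8 to 1333 called genes in all (the lowest without control library 2 and the highest without control library 3, with 30 and 63 when knockout library 1 or 2 was omitted). *Itga4* was -0.072 without knockout library 3 and -0.18 without control library 3, *Itgb2* was -0.021 without control library 2, and the ratio was 0.084 without knockout library 3, 0.27 without control library 1 and 0.23 without control library 2; the causes were not tested.

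With the replicate block, which pairs libraries by number, 855 genes were called (352 higher) against 660 (232 higher). Among the lists the block gave 1 in place of 2 lower genes of integrin activation (*Vcl* lost), 1 in place of 0 higher signalling genes (*Ptk2b*, adjusted p = 0.0375) and 2 in place of 1 lower immunoglobulin family or junction genes (*Pecam1* added, 0.0442), the last 2 genes being named after their values were seen. Beyond these, *Itgal* and *Timd4*, the block changed no call among the 9 genes and the 7 lists. Of the mast cell markers the block called 4 in place of 5 (*Kit* lost, adjusted p = 0.0538). Of the neutrophil markers it lost *Camp* (0.0529) and added *Retnlg* (0.0437), also lower. Without the filter on low values, 446 of 15415 genes were called (141 higher), and 0 in place of 1 lower gene remained among both the immunoglobulin family or junction genes and the secreted ligands. *Timd4* passed with a pseudocount of 0.1 (adjusted p = 0.0458), with the block (0.0436) and without control library 3, and *Lyz2* without knockout library 2 (0.00555).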

Other observations

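The genes whose profile over the 6 libraries lay nearest to that of *Icam1* (root mean square distance of centred log2(FPKM + 1)) were *Slc12a7*, a potassium chloride cotransporter, at 0.0747, *Nrros*, which anchors latent TGF-β on macrophages, at 0.0795, and *Dnmt3aos*, an RNA antisense to *Dnmt3a*, at 0.0887. *Nrros* measured 13.8, 16.6 and 11.7 FPKM in the knockout and 6.86, 6.87 and 8.68 FPKM in the control (log2 fold change 0.82, limma adjusted p = 0.0332). *Slc12a7* (log2 fold change 0.82, adjusted p = 0.0693) and *Dnmt3aos* (0.70, 0.113) did not pass. All 3 were picked for their likeness to a profile that was higher in the knockout, so their direction follows from the choice. As with *Icam1*, knockout library 2 was the highest and control library 3 the highest of the controls. Strand of counting is not stated, so reads of *Dnmt3aos* and *Dnmt3a* cannot be told apart.

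Nearest to *Itgam* were *Kdelr1*, a receptor that returns proteins to the endoplasmic reticulum, at 0.0367, *Clec5a*, a myeloid lectin receptor, at 0.0734, and *Mxi1*, a transcription factor of the MYC network, at 0.0740. *Kdelr1* measured 25.2, 29.7 and 37.4 FPKM in the knockout and 41.5, 34.0 and 34.0 FPKM in the control, with a log2 fold change of -0.25 and an adjusted p of 0.385. These likenesses describe 6 libraries and were chosen from all tested genes.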
